A study of Caenorhabditis elegans with 609 samples.

Results

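The 7 protein genes of the *C. elegans* mitochondrial genome that encode subunits of NADH dehydrogenase, respiratory complex I, were followed across wild strains. They were taken by their row names (MTCE.3.1, MTCE.4.1, MTCE.11.1, MTCE.16.1, MTCE.25.1, MTCE.34.1 and MTCE.35.1) and are 7 of 65330 rows of the expression tables. The study grew wild isolates of different genotype, harvested synchronized hermaphrodites as young adults once the first embryo was seen, and sequenced poly(A) RNA of whole animals. Every strain was kept at 20 °C on agar plates with the OP50 strain of *E. coli* and received no treatment, so the strain is the only factor of the design. Each strain is an isolate, each sample is an independently grown culture, and the label of each library gives 1 of 14 names of sequencing pools, run in consecutive years. Of these names, 6 join a pair of pool numbers (as in 0307), and each name was taken as a pool of its own, although the methods of the study describe fewer pooled libraries. The laboratory strain N2 and the Hawaiian strain CB4856 are among the strains, and no strain serves as a control for all others.

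Complex I is the entry point of electrons from NADH into the respiratory chain, and it pumps protons across the inner mitochondrial membrane. Most of its subunits are encoded in the nucleus, made in the cytosol and imported, while the 7 members described here are made inside the mitochondrion and sit in the membrane arm that moves protons. Animal mitochondrial genomes are transcribed into long precursor RNAs that are cut into the single messenger and ribosomal RNAs, so that the levels of these messengers depend on the number of genome copies, on transcription and on the stability of each piece. In *C. elegans* adults, the germline holds a large share of all mitochondrial genome copies. In RNA of whole animals, fewer cells of a type and less RNA per cell cannot be told apart.

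The members lie on the plus strand of the mitochondrial genome (MtDNA of assembly WBcel235). Their symbols are those of the RefSeq genes at the same positions. ND6 (MTCE.3.1) spans bases 113 to 549 and is followed by ND4L (MTCE.4.1) at 549 to 783. ND1 (MTCE.11.1) spans 1763 to 2635 and ND2 (MTCE.16.1) spans 3389 to 4269. ND4 (MTCE.25.1) spans 6506 to 7808. ND3 (MTCE.34.1) at 11356 to 11691 is followed by ND5 (MTCE.35.1) at 11691 to 13272. Each of these is 1 transcript with no intron, and the annotation gives ND6 and ND4L, and likewise ND3 and ND5, 1 base in common. ND1, ND2, ND4 and ND5 are the large core subunits of the membrane arm, of which ND2, ND4 and ND5 are related to antiporters and form its proton channels. ND3, ND4L and ND6 are small subunits of the membrane arm. The other 5 protein genes of the mitochondrial genome are ATP6 of the ATP synthase, CYTB (cytochrome b of complex III) and COX1, COX2 and COX3 of cytochrome c oxidase.

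Values are raw TPM (transcripts relative to the total of the sample and per length) from Kallisto divided by a factor for each sample, called normalized TPM, and tests used log2(normalized TPM + 0.5). The rule of the study on expression distances within and between strains was applied anew to the deposited counts. It kept 559 samples and left out 49, so that 145 strains had 3 samples and 62 had 2. This set is close to the selection of the study but not the same. The totals of estimated counts of the samples before this selection ran from 15461168 to 280262722 with a median of 28772489. All 7 members passed the expression filter that 26388 transcripts passed. In the kept samples the estimated counts were lowest for ND4L, with a median of 188 and a range of 11 to 3443, and highest for ND1, with a median of 4630 and a range of 695 to 40049. The library of JU2131 replicate 1 stood apart from the other cultures of its strain and from the series, as described below, and results that rest on it are given with and without it.

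Together the members were a small part of the sequenced poly(A) RNA. They held 0.0137% to 0.469% of the TPM of a sample, with a median of 0.0748%. The other 5 protein genes held 0.127% to 2.65% with a median of 0.509%. Of the TPM of all 12 protein genes, the complex I genes held 7.40% to 23.6% with a median of 12.8%, although they are 7 of the 12.

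ND1 was the most abundant member. Its strain means ran from 81.7 to 776 normalized TPM with a median of 243. ND3 followed with a median of 142 and a range of 29.9 to 1030 normalized TPM over the strain means. ND4 had a median of 117 and a range of 41.1 to 421. These 3 were followed by a group of similar level. ND6 had a median of 102 and a range of 24.7 to 797 normalized TPM, ND5 a median of 95.7 and a range of 39.7 to 557, and ND4L a median of 78.1 and a range of 17.4 to 680.5. ND2 was the least abundant, with a median of 35.5 and a range of 7.79 to 206 normalized TPM. TPM is a level per length, so these levels can be set side by side, but it rests on the length that a fragment can start in. The share of each messenger that poly(A) selection captured was not measured.

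The order of neighboring members held in most strains at its ends and in fewer between them. The strain mean of ND1 exceeded that of ND3 in all strains but 6, by 0.74 ± 0.42 on the log2 scale (mean ± SD over strains). ND4L exceeded ND2 in all strains but 2, by 1.13 ± 0.53. ND3 exceeded ND4 in 154 strains and ND4 exceeded ND6 in 147 strains. ND6 and ND5 were the closest of these neighbors, with a difference of 0.05 ± 0.44 and ND6 higher in 116 strains and lower in 91. ND5 exceeded ND4L in 147 strains, by 0.29 ± 0.46. In these libraries the effective length that divides the counts had a median of 85.0 bases for ND4L, 164 for ND3 and 256 for ND6, against 1396 for ND5, because the fragments averaged 156 to 220 bases (median 186). A read on ND4L, whose annotated length is 235 bases, therefore weighs more in TPM than a read on ND5, and the place of the short members in this order depends on the fragment length that Kallisto estimated.

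**Figure D1:**
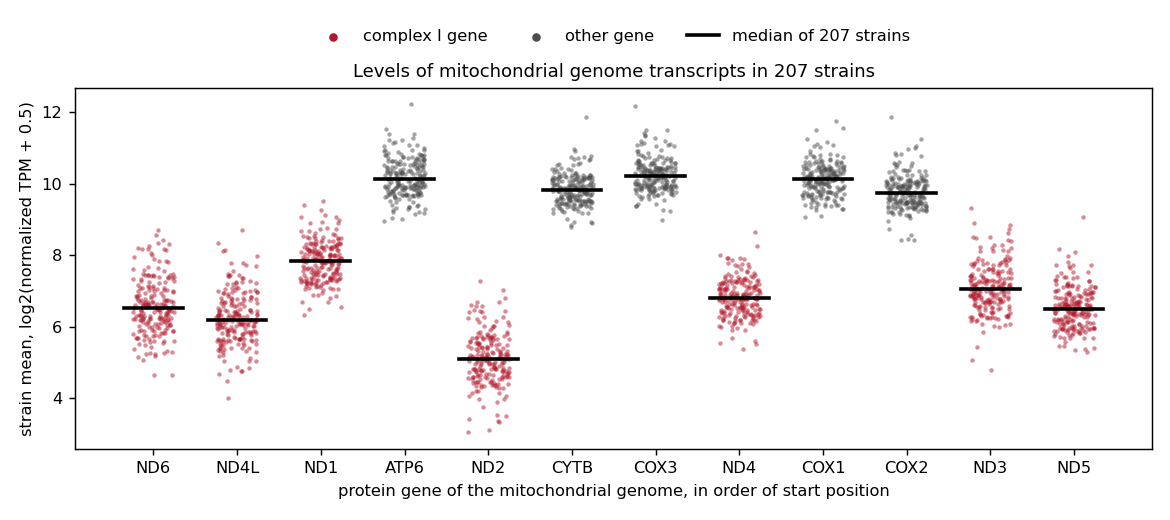
Strain means on the log2(normalized TPM + 0.5) scale (y axis) of the 12 protein genes of the mitochondrial genome in the order of their start positions (x axis), with 1 point for each strain and a bar at the median. The medians of the complex I genes (red) lie between 5.10 for ND2 and 7.84 for ND1, and those of the other genes (grey) between 9.74 for COX2 and 10.22 for COX3.

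The 5 other protein genes were more abundant in the median strain than each of the members. COX3 had a median over strain means of 1258 normalized TPM, COX1 of 1164, ATP6 of 1156, CYTB of 927 and COX2 of 878. Neighbors on the genome did not have like levels: ATP6 starts before the last base of ND1 and had a median of 1156 against 243 normalized TPM. ND2, the least abundant member, lies between ATP6 and CYTB. The SD of the strain means on the log2 scale was 0.53 to 0.78 for the members and 0.43 to 0.53 for the other 5 genes. All members but ND4 (0.527) had a larger SD than each of those 5, the highest of which was ATP6 (0.528).

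The first question was whether the members differed among strains. All 7 did, in limma's F-test over strains with p-values adjusted over 26388 transcripts, of which 83.7% were also called. A count of 7 of 7 is therefore near what most transcripts showed. The adjusted p was lowest for ND1 (6.06e-11) and ND4 (8.33e-09), and it lay between 1.12e-07 and 6.15e-07 for ND2, ND4L, ND3, ND6 and ND5. The part of the variance that lay among strains, the broad-sense heritability H2, was 0.305 for ND1, 0.269 for ND4, 0.244 for ND4L, 0.241 for ND2, 0.236 for ND3, 0.234 for ND6 and 0.231 for ND5. The median H2 of all 26388 transcripts was 0.335. Among the other mitochondrial protein genes, H2 ran from 0.253 for COX2 to 0.397 for COX1.

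Cultures of the same strain differed from each other more than the strain means did. The SD among cultures of a strain on the log2 scale was 0.93 for ND6, 0.89 for ND4L, 0.85 for ND2, 0.81 for ND3, 0.71 for ND5, 0.62 for ND1 and 0.61 for ND4. The median over all transcripts was 0.43, and 68.8% to 85.2% of transcripts varied less among cultures than a member did. For each member this SD exceeded that of the strain means, which was 0.78 for ND6 and 0.53 for ND4.

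The mean of the log2 values of the 7 members, called the complex I mean, describes what they shared. It ran from 3.92 to 9.99 over the 559 samples and from 4.81 to 8.53 over the strains, with a median of 6.53 and an H2 of 0.212. The range among cultures of a strain had a median of 0.86 and a highest value of 3.84, and it exceeded 1 in 92 strains and 2 in 24 strains. The widest range was larger than the distance between the lowest and the highest strain mean of the series.

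**Figure D2:**
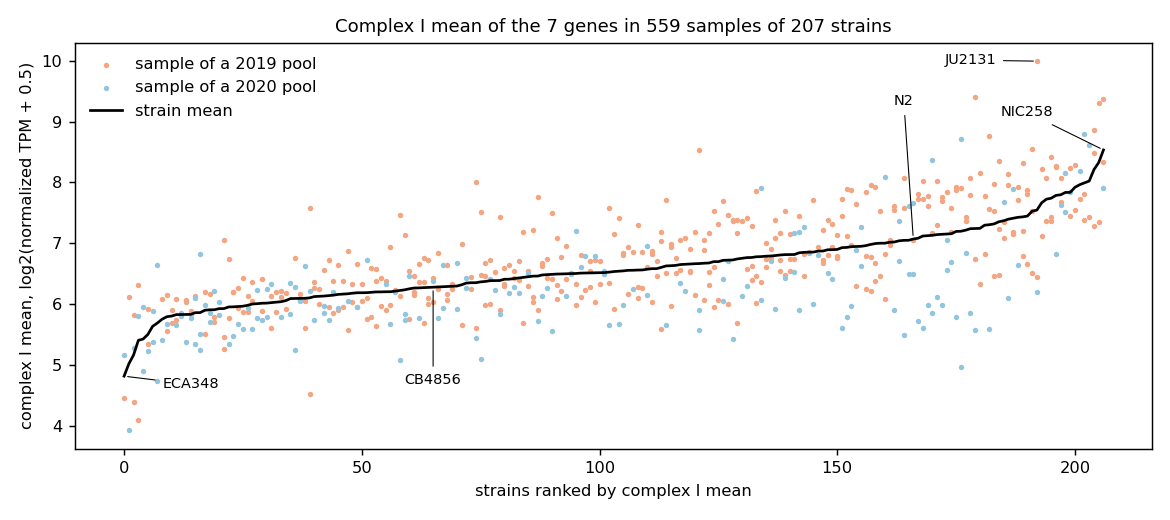
Complex I mean, the mean log2(normalized TPM + 0.5) of the 7 genes (y axis), in each of 559 samples, with the strains ranked by their mean (x axis, black line) and points colored by the year of the sequencing pool (the earlier year orange, the later year blue). Strain means rise from 4.81 in ECA348 to 8.53 in NIC258, and the library of JU2131 replicate 1 lies at 9.99, above every other sample.

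To find the strains behind these differences, each strain was compared with the mean of all others in the same limma fit, with 1 adjustment over all transcripts and strains. Over all transcripts, 6.51% of the pairs of a transcript and a strain were called higher and 5.74% lower. Of the 1449 pairs with a member, 51 (3.52%) were higher and 27 (1.86%) were lower, in both directions a smaller share than over all transcripts. The 51 lay in 18 strains and the 27 in 10 others. No strain had members called in both directions. The called differences ran from 0.97 to 2.55 on the log2 scale where higher and from -2.32 to -1.02 where lower, and the median standard error was 0.49. With the sequencing pool in the fit, 81 of the 1449 pairs with a member were higher and 48 were lower. Over all transcripts, 7.35% of pairs were then higher and 6.49% lower, again larger shares than for the members. Of the 51 pairs, 39 were called again, and of the 27, 22 were.

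NIC258 had the highest complex I mean, and all 7 members were called higher there. ND5 measured 762, 497 and 413 normalized TPM in its 3 cultures, each above the median strain at 95.7. Its difference from the other strains was 2.55 ± 0.41 on the log2 scale (SE), a fold of 5.87 with an adjusted p of 9.45e-08 in limma. ND3 measured 1423, 552 and 338 normalized TPM, and was 4.75-fold higher (limma adjusted p 7.29e-05). ND1 rose least, by 1.23 ± 0.36 (SE) or 2.34-fold with a limma adjusted p of 0.00858. In this strain 31.9% of all transcripts were called higher too.

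NIC260 and NIC513 followed. In NIC260, ND4L measured 1025 and 171 normalized TPM in the 2 kept cultures, the larger of them in pool 01. It was 5.58-fold higher than in the other strains (limma adjusted p 0.00174), and 6 of the 7 members were called higher, against 8.55% of all transcripts. With the pool in the fit 3 members were called in NIC260. In NIC513, 6 of 7 members were called higher with and without the pool in the fit, against 21.7% of all transcripts without it. ND5 measured 519, 138 and 337 normalized TPM there, and ND3, which was not called (limma adjusted p 0.102), measured 301, 222 and 392. In JU1792 and JU2570, 5 members each were called higher, against 13.9% and 19.9% of all transcripts, and all 7 with the pool in the fit.

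The lowest strains had values near the floor of the series. In ECA348, ND3 measured 16.9 and 43.0 normalized TPM, both below the median strain at 142. The difference was -2.32 ± 0.57 on the log2 scale (SE), with a limma adjusted p of 0.00121. In ECA348, 6 of 7 members were called lower, all but ND5 (-1.18 on the log2 scale, limma adjusted p 0.116), against 5.55% of all transcripts. In JU2016, 5 members were called lower, against 4.59% of all transcripts, but its 2 cultures were far apart. ND2 measured 23.7 and 2.63 normalized TPM in these cultures. The second, from pool 08, was the lowest value of ND2 in the kept samples. With the pool in the fit, 5 members were called lower in ECA348 and 4 in JU2016. In ECA259, 5 members were called lower (ND1, ND2, ND3, ND4 and ND4L), against 9.68% of all transcripts, and all 7 with the pool in the fit. ND4 measured 69.2, 35.3 and 53.4 normalized TPM in ECA259, all below the median strain at 117.

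Some strains stood out for part of the members. In ED3012, ND1 measured 906, 988 and 435 normalized TPM and was called higher (3.22-fold, limma adjusted p 9.53e-05), with ND2 and ND4, against 22.1% of all transcripts. The strain mean of ND1 in ED3012 was the highest of all strains at 9.51 on the log2 scale. In ECA592, ND4 measured 37.3, 47.4 and 38.5 normalized TPM, the lowest strain mean of ND4, and ND1, ND4 and ND5 were called lower, against 13.5% of all transcripts. ND6 in ECA705 measured 32.8, 25.3 and 43.8 normalized TPM and was the only member called lower there (0.350 of the other strains, limma adjusted p 0.0439), where 6.44% of all transcripts were lower.

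JU2131 was called higher for ND6 and ND3, against 16.0% of all transcripts, and for both members this rested on 1 library. ND6 measured 2178, 122 and 92.1 normalized TPM in its 3 cultures, and ND3 measured 2823, 163 and 103. In the same order, ND5 measured 344, 55.8 and 49.5. The first culture, in pool 01, held the highest values of ND6, ND4L, ND1, ND2 and ND3 in the kept samples. The others lay near the median strain for ND6 and ND3, but below it for ND5 (95.7). Without the first culture, the difference of ND6 was 0.16 ± 0.65 on the log2 scale (SE) with a limma adjusted p of 0.921, and that of ND3 was -0.06 ± 0.56 with 0.966.

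The reference strains lay inside the range. In N2 the complex I mean was 7.05, 6.49 and 7.67 in its 3 cultures. ND1 measured 376, 303 and 425 normalized TPM in N2, and its difference from the other strains was 0.68 ± 0.36 (SE, limma adjusted p 0.235). In CB4856 the complex I mean was 6.03, 6.43 and 6.37. ND4 measured 72.4, 87.9 and 70.0 normalized TPM in CB4856, and its difference was -0.56 ± 0.35 (SE, limma adjusted p 0.36). No member was called in either strain. The N2 cultures lay above all CB4856 cultures in the complex I mean, but the nearest were at 6.49 and 6.43. The SD of this mean among cultures of a strain was 0.74, and these strains were not tested against each other.

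The members also differed among sequencing pools. All 7 were called in limma's F-test over pools in a fit with strain and pool, in which 75.6% of all transcripts were called, with adjusted p-values from 4.75e-32 for ND5 to 1.02e-18 for ND2. Among the 7 pools of over 50 samples, the median of the complex I mean was highest in pool 01 (7.15) and lowest in pool 08 (5.93). Pool 07 had a median of 6.08. By the labels, pools 01 to 06 belong to the earlier year, and pools 07, 08 and those of joined names to the later. Each joined name pairs the number of an earlier pool with that of a later pool. The 23 samples of joined names were counted in the later year, as labeled. The labels do not say whether these samples were also sequenced in the earlier year. Pools 04 and 06 had medians of 6.76 and 6.88, and pools 03 and 05 had medians of 6.36 and 6.45. The pools overlapped widely, since pool 08 alone held values from 3.92 to 8.79.

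In the 122 strains with cultures labeled with both years, the complex I mean was lower in the later year in 92 strains and higher in 30. The mean difference, later minus earlier, was -0.61 ± 0.90 on the log2 scale (SD over strains). Every member was lower in more strains than it was higher. ND4L was lower in 98 of 122 strains with a mean of -0.77 ± 1.06, and ND1 in 80 with a mean of -0.35 ± 0.75. The pool is named only for sequencing in the labels, so culture, extraction and sequencing cannot be told apart in this difference. H2 of the complex I mean was 0.403 once pool effects, estimated together with strain, were subtracted. It was 0.371 in the 385 samples of the earlier year and 0.033 in the 174 samples of the later, of 140 strains, few of which had more than 1 culture in that year.

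**Figure D3:**
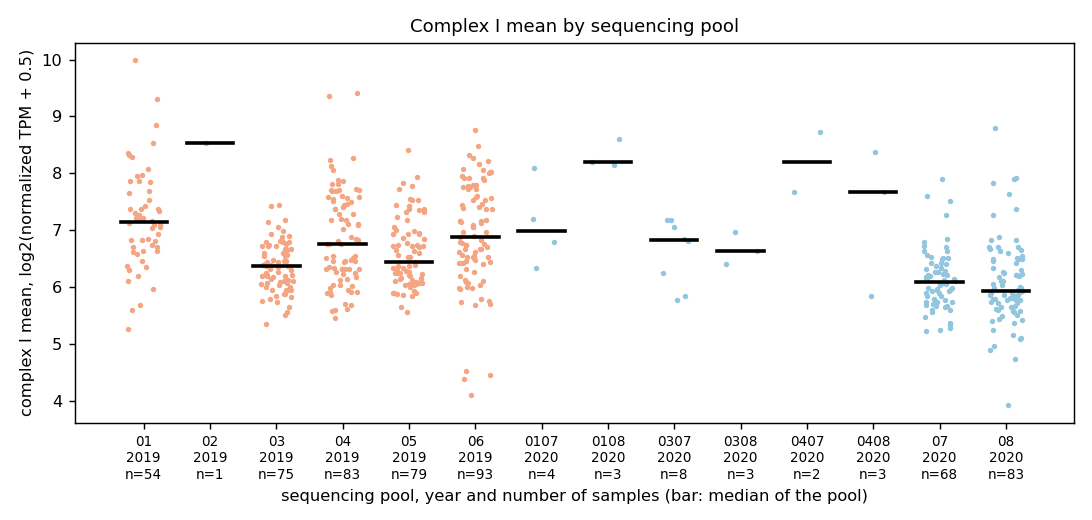
Complex I mean, log2(normalized TPM + 0.5) (y axis), of 559 samples by sequencing pool (x axis, with year and number of samples), with a bar at each median. The medians of the large pools run from 5.93 in pool 08 to 7.15 in pool 01, and the samples of all these pools overlap.

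A measure of the libraries moved with the members. The mean fragment length of a sample, recovered from counts and TPM, had a Pearson's r of 0.43 and a Spearman's rho of 0.46 with the complex I mean over strain means, and an r of 0.41 among cultures of the same strain. Without the 2 strains farthest from the median length the r was 0.43. The TPM of nuclear ribosomal RNA rows, on the log2 scale, had an r of 0.39 and a rho of 0.40 over strain means. The log2 total count had an r of -0.10 and a rho of -0.19. Within strains the r of single members with the fragment length ran from 0.29 for ND4L to 0.46 for ND1. The part of these measures in the differences among strains was not tested beyond a regression on the fragment length, after which H2 of the complex I mean was 0.194 against 0.212 before.

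The members rose and fell together. Over the strain means, the 21 pairs of members had Pearson's r of 0.71 to 0.91 with a median of 0.83, and over the deviations of cultures from their strain means 0.79 to 0.97 with a median of 0.92. These are descriptions over values that share libraries and normalization. The closest pair over strain means was ND6 and ND3 (0.91). The adjacent ND3 and ND5, whose annotations share a base, had 0.77 over strain means and 0.79 among cultures, the lowest of the pairs among cultures.

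They also moved with the other 5 protein genes, but by more. The complex I mean and the mean of the other 5 genes had an r of 0.92 and a rho of 0.89 over strain means and an r of 0.96 among cultures. The r was 0.93 in the samples of the earlier year, 0.92 in those of the later, and 0.92 without the 2 strains farthest from the median. For each change of 1 on the log2 scale in the mean of the other 5 genes among cultures, the complex I mean changed by 1.40. This slope was 1.68 for ND6, 1.59 for ND4L, 1.56 for ND2, 1.43 for ND3, 1.25 for ND5, 1.15 for ND1 and 1.12 for ND4. The complex I mean minus the mean of the other genes had a median of -3.43 over strains, a range of -4.09 in ECA348 to -2.68 in NIC260, and an H2 of 0.294. In NIC258, which had the highest values of both, the difference was -3.40, close to the median strain.

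The balance among the members was steadier among cultures than their levels. For each sample, the log2 value of a member minus the mean of the other 6 was taken, which removes what all 7 share, normalization included. The H2 of this balance was 0.621 for ND2, 0.601 for ND4L, 0.510 for ND6, 0.461 for ND1, 0.380 for ND5, 0.359 for ND4 and 0.237 for ND3. For 6 of the 7 it exceeded the H2 of the member's own level, and for ND3 both were 0.24. In a permutation test of the strain labels each balance gave a one-sided p of 1e-05, the smallest that 100000 permutations can give. Strains are related, so that they are not fully independent in this test. The SD among cultures was 0.24 for ND2, 0.28 for ND6 and 0.30 for ND4L, against 0.85 to 0.93 for their levels.

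ND4L was the member whose balance spread most among strains. Its strain means ran from -1.90 in ECA189 to 0.92 in QX1233 with a median of -0.37. The 3 cultures of ECA189, from pools 04, 06 and 08, had -2.0, -1.84 and -1.86, while their complex I means were 6.81, 6.11 and 6.61, close to the median strain. ND4L measured 33.6, 22.7 and 31.7 normalized TPM in ECA189, from 83, 89 and 90 estimated counts. In JU2586 the balance was -1.33, -1.59 and -2.25, the last being the lowest of the 559 samples and resting on 26 estimated counts. DL226 followed at -1.57, and ND4L was the only member called lower in DL226 and in JU2586, where 6.53% and 3.04% of all transcripts were lower. At the other end, both cultures of QX1233 (1.02 and 0.81) lay among the 6 highest samples, but both came from pool 08, at ND4L levels of 120 and 90.6 normalized TPM. BRC20067 had 1.25 and 0.31, so that its 2 cultures were apart.

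ND6 set other strains apart. The 3 cultures of XZ1515 had a balance of -1.29, -1.14 and -0.99, and those of ECA705 had -0.85, -1.18 and -0.88. All 6 were among the 13 lowest of the 559 samples. ND6 measured 29.9, 53.1 and 60.9 normalized TPM in XZ1515 at complex I means of 6.03, 6.72 and 6.79. Both cultures of QX1794, from pools 05 and 0307, had the opposite balance, 1.12 and 1.28, the latter the highest of all samples, at 225 and 245 normalized TPM. The fragments of these cultures averaged 208 and 218 bases, near the upper end of the series. Among cultures of a strain the balance of ND6 had an r of 0.46 with the fragment length, against -0.27 to 0.26 for the other 6 balances, and with the fragment length regressed out its H2 was 0.549. The part of the fragment length in single strains was not tested. JU2519 followed with 0.73 and 0.78.

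ND2 had the highest H2 of the balance. Both cultures of NIC526 had -2.82 and -2.76, at 9.89 and 10.7 normalized TPM, but both came from pool 08. BRC20067 had -2.22 and -2.86. The highest strain was ECA189, with -0.71, -1.16 and -0.99 and ND2 at 73.0, 34.1 and 53.5 normalized TPM. JU1581 followed at -1.13 and -0.87. ECA189 was also the strain in which the balance of ND4L was lowest. A part of this follows from the definition, since ND2 and ND4L each enter the other's mean.

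The balances of ND1 and ND4 moved with the overall level, more closely among cultures than over strain means. ND1 was lowest in NIC258 (0.33, 0.68 and 0.81) and NIC260 (0.41 and 0.96), where the complex I mean was highest. Its balance had an r of -0.66 with the complex I mean among cultures and -0.37 over strain means. It was highest in JU2578 (2.09, 2.19 and 2.33) and JU2586 (1.90, 2.06 and 2.59). ND4 was highest in XZ1516 (1.36, 0.75 and 0.87) and ECA703 (0.88 and 0.93), both at complex I means near the median, with ND4 at 164, 136 and 118 normalized TPM in XZ1516. It was lowest in KR314 (-0.04 and -0.75) and NIC260 (-0.49 and -0.25). Its r with the complex I mean was -0.67 among cultures and -0.50 over strain means. For ND6 the r was 0.73 among cultures and 0.46 over strain means. A part of these r follows from the definition, since each member enters the complex I mean and the balances of the others.

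ND3 and ND5, neighbors on the genome, differed in opposite directions in some strains. ND3 was highest in JU2879 (1.60 and 1.38) and NIC528 (1.66 and 0.82), and ND5 was among the lowest in NIC528 (-1.19 and -0.77). ND3 was lowest in JU2853 (-0.57 and -0.54) and EG4724 (-0.27, -0.20 and -0.84). ND5 was lowest in JU2131 (-1.83, -0.73 and -0.65), but without replicate 1 its mean was -0.69 and 4 strains were lower, led by NIC528 (-0.98) and JU2879 (-0.79). ND5 was highest in PS2025 (0.81, 0.73 and 0.78) and JU2234 (0.78, 0.55 and 0.79), each with its 3 cultures in different pools. Over the strains, the balances of ND3 and ND5 had an r of -0.51, of which a part follows from the definition, since each enters the other's mean. ND3 had the largest spread among pools, with medians of 0.15 to 0.91 in the 7 large pools. The reads of these strains were assigned to strain-specific transcripts in which single-base variants had been substituted. The variant release used for this holds variants of the mitochondrial genome, and their part in the balances was not tested.

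**Figure D4:**
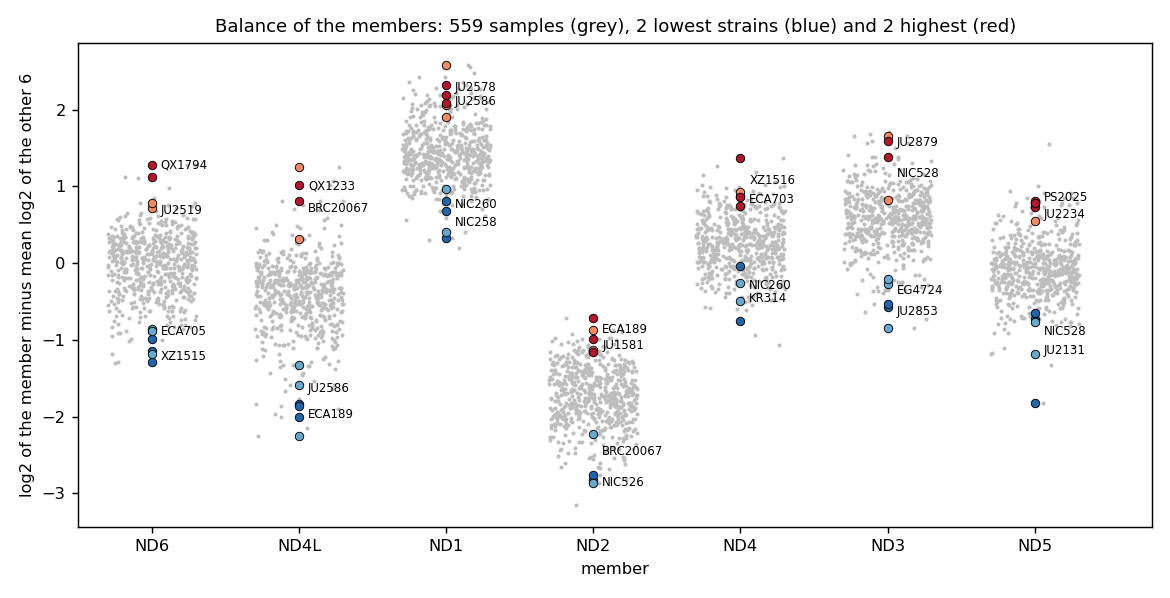
Balance of each member (x axis), its log2 value minus the mean of the other 6 members (y axis, log2 units), in 559 samples (grey), with the cultures of the 2 strains of lowest mean (blue) and of highest mean (red) marked. The 3 cultures of ECA189 lie at -2.0, -1.84 and -1.86 for ND4L, and both cultures of QX1794 at 1.12 and 1.28 for ND6.

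Of 33 nuclear genes of the same complex, 32 spanned less over the strain means than any member. Their spans on the log2 scale had a median of 0.93, against 3.19 to 4.69 for the members. The exception, nuo-3, named after its values were seen, spanned 3.56 at a low median level of 1.26 on that scale. Wide spans were not particular to the members, since the other 5 protein genes of the mitochondrial genome spanned 2.66 (COX1) to 3.45 (COX2). The mean over the 33 genes ran from 7.23 to 7.95. Of their 49 tested transcripts, 41 (83.7%) were called among strains, the same share as over all transcripts. The Pearson's r of this mean with the complex I mean was 0.42 and Spearman's rho 0.36 over strains, and the r was 0.21 among cultures. Of the 33 genes, 31 had an r above 0, with a median of 0.38, against a median of 0.22 over the 16248 nuclear genes tested, of which 69.6% were above 0. The closest were ndub-3 (0.63) and nduf-7 (0.61), and the lowest were nduf-2.2 (-0.34) and nuo-5 (-0.23), the last encoding the large subunit that holds iron-sulfur clusters. With CPM (counts relative to the library total, scaled between samples by TMM factors) in place of TPM the r of the list was 0.14. It was 0.53 in the samples of the earlier year and 0.22 in those of the later, and 0.39 over all strains but the 2 farthest from the median of the list.

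Other lists of mitochondrial genes were read in the same way, all as descriptions over the strain means. The 69 mitochondrial ribosome proteins had an r of 0.46 and a rho of 0.35 as a mean, and a median over genes of 0.29, from mrpl-9 (0.65) and mrps-33 (0.65) to mrpl-39 (-0.28) and mrpl-20 (-0.22). The r of this list was 0.07 with CPM. The assembly factors nuaf-1 (0.46) and nuaf-3 (0.34) had an r of 0.48 as a mean. For the 31 nuclear genes of complexes III to V, a list by name prefix that also holds assembly factors such as cox-10, cox-11 and cox-15, the r was 0.22 over strains and -0.25 among cultures, from cox-14 (0.53) and cox-18 (0.43) to ucr-2.3 (-0.39) and atp-1 (-0.31). The 6 genes that maintain or express the mitochondrial genome had an r of 0.41 and a rho of 0.37 as a mean. Of these, rpom-1, the mitochondrial RNA polymerase, had an r of 0.20, and hmg-5, the packaging factor, 0.19. The r was 0.02 for mtss-1, the single-strand binding protein, -0.09 for mma-1 and -0.22 for polg-1, the DNA polymerase. For twnk-1, the helicase, r was 0.42 at levels near 0. The 5 mitochondrial stress genes had an r of 0.34 and a rho of 0.32 as a mean. Among them, dve-1 (0.45) and ubl-5 (0.44) had an r above 0, and hsp-60 (-0.10), hsp-6 (-0.12) and atfs-1 (-0.26) below 0. The ribosomal RNA rows of the mitochondrial genome, MTCE.7 and MTCE.33, were not in the test across transcripts. They had r of 0.75 and 0.79 with the complex I mean, at medians of 44.5 and 20.7 normalized TPM after poly(A) selection.

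Markers of tissues and stages were read in the same way, against the median r of 0.22 over nuclear genes, of which 69.6% lay above 0. The 8 oocyte and germline genes had an r of -0.67 and a rho of -0.66 with the complex I mean over strains as a mean, and -0.65 among cultures. All 8 were below 0, from rme-2, the oocyte yolk receptor, and puf-5 (both -0.67) through oma-2 (-0.61), gld-1 and pgl-1 (both -0.60), cgh-1 (-0.59) and oma-1 (-0.57) to glp-1 (-0.52). Their mean ran from 7.40 to 8.50 over the strains. The r of the list was -0.75 in the samples of the earlier year and -0.54 in those of the later, and -0.67 without the 2 strains farthest from the median. The 6 yolk genes had an r of -0.40, from vit-2 (-0.55) and vit-6 (-0.49) through vit-3 (-0.29), vit-1 (-0.23) and vit-4 (-0.20) to vit-5 (-0.19). The 29 major sperm protein genes had an r of 0.27 as a mean and a median over genes of 0.25, near that of all nuclear genes, and all lay above 0, from msp-19 (0.10) and msp-74 (0.18) to msp-49 (0.28) and msp-81 (0.28). The 6 body wall muscle genes had an r of 0.28, from unc-54 (0.17) and unc-15 (0.19) through myo-3 (0.28), unc-27 (0.31) and unc-22 (0.32) to unc-89 (0.39), and 0.05 among cultures. The 5 early embryonic genes end-1, end-3, pes-10, tbx-37 and tbx-38 had r between -0.31 and -0.14, at median levels near 0 TPM. In the samples of the later year the r was 0.03 for the muscle list, 0.10 for the sperm list and -0.05 for the embryonic list. With yolk, sperm and early embryonic scores regressed out, the r with the germline list was -0.54, with the nuclear complex I genes 0.20, and with the other mitochondrial protein genes 0.90. On the scale of raw TPM, without factors between samples, the r with the germline list was -0.33. The part of these tissues and stages in the differences among strains was not tested further.

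**Figure D5:**
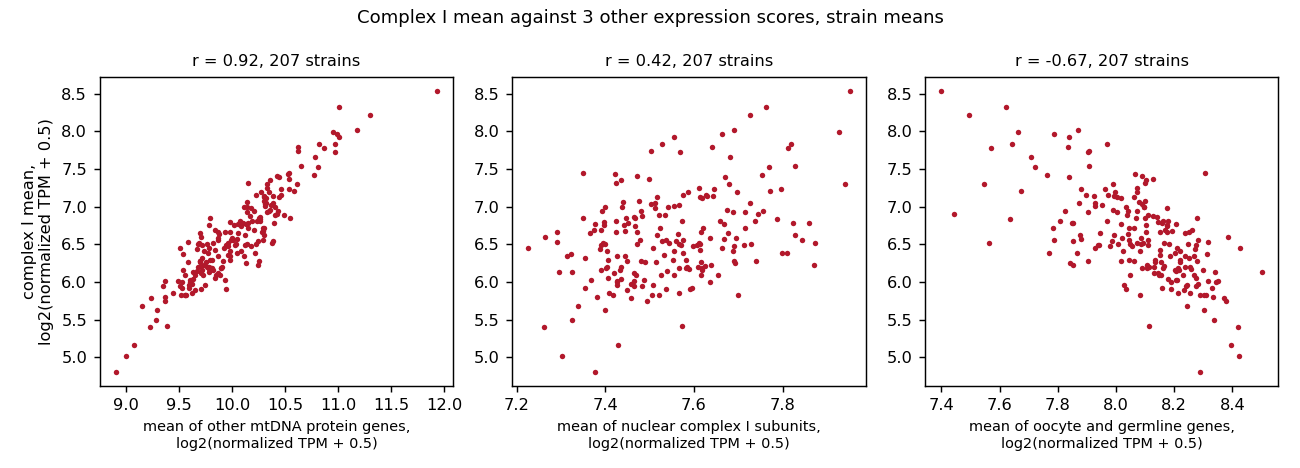
Strain means of the complex I mean (y axis) against the means of the other 5 mitochondrial protein genes, 33 nuclear complex I genes and 8 oocyte and germline genes (x axes), all on the log2(normalized TPM + 0.5) scale, 1 point for each strain. Pearson's r was 0.92, 0.42 and -0.67.

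Outside the mitochondrial genome, the transcripts whose pattern was most like the complex I mean over the strain means were single isoforms. They were C17H12.14.1 of vha-8 (0.85) and R10E11.2.1 of vha-2 (0.80), subunits of the vacuolar proton pump, F54C1.7.2 of pat-10 (0.83), a muscle troponin C, F01G4.2a.1 of ard-1 (0.82) and Y51A2D.14.1 of txt-14 (0.80). Each of these genes had 2 tested transcripts, and the r of the sum of both was lower, 0.24 to 0.44. The most opposed were F56D1.7.2 of daz-1 (-0.85), an RNA-binding protein of the germline, K05C4.6b.1 of hmp-2, a catenin (-0.85), C36E8.5.2 of tbb-2, a beta-tubulin (-0.84), F54F2.2c.1 of zfp-1 (-0.84) and T03D8.1c.1 of num-1 (-0.84). For these 5 the r of the gene's sum was -0.84 to -0.65. Of 26376 nuclear transcripts, 302 had an r above 0.6 and 760 an r below -0.6, and the median was 0.15.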

How the data were processed

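RNA-seq of poly(A) RNA covered 208 strains in 609 samples, sequenced in 2019 and 2020, and 608 samples of 207 strains were used, because JU2800 has 1 sample. The authors trimmed reads with fastp 0.20.0 and assigned them with Kallisto 0.44.0 to transcriptomes of annotation WS276 with the single-base variants of each strain substituted. The deposited tables hold estimated counts and raw TPM of each transcript, without normalization between samples. Estimated counts share reads between overlapping transcripts, and TPM divides them by an effective length, so TPM of a transcript not much longer than the fragments depends on the library.

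Rows were matched to Ensembl's annotation of WBcel235 (58525 by transcript identifier, 6635 by sequence name, 13 not found, 157 transposable elements). Transcripts of protein-coding genes and pseudogenes with at least 5 normalized counts in all samples of at least 10 strains were tested (26388). Samples were selected by the study's rule on distances, applied anew, so the kept set is not identical to the study's own. Raw TPM was divided by median-ratio factors, as in sleuth, over 8295 transcripts. R 4.3.3 with limma 3.58.1 (trended variance), edgeR 4.0.16 and DESeq2 1.42.0, and scipy 1.17.1, pandas 2.3.3 and numpy 2.4.6 under Python 3.11.15 were used. Adjusted p-values are Benjamini-Hochberg values, called under 0.05. For H2, strain was a random effect in a model fitted by restricted maximum likelihood. The limma tests among strains and of single strains were also run on simulated counts, which held no pool effects.

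The members and lists were chosen with earlier results of these data known. The text names the 7 members, the 2 genes of highest and of lowest r in each list (all in lists of 8 or fewer), the 5 nuclear transcripts of highest and of lowest r, the 3 strains of highest and of lowest complex I mean, the extreme strains of each member and balance, N2 and CB4856. Beyond that rule, JU1792, JU2570, JU2131 and DL226 were named after their values were seen. Symbols cco-1, cco-2, pnpt-1 and suv-3 were not found. The alternatives tried were all 608 samples, other pseudocounts, CPM of the estimated counts with TMM factors, factors without mitochondrial transcripts, raw TPM, pool as a covariate, each replicate left out, edgeR on rounded estimated counts with a dispersion from 400 transcripts, other expression filters and developmental scores regressed out. The fragment length regressed out, each year alone and leaving out the library of JU2131 replicate 1 were chosen after seeing the data.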

Additional observations from a re-analysis of the deposited data

How the results depend on the processing

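All 7 members were called among strains, and all 7 among pools, under every alternative run for these tests, edgeR and the 3 alternatives that leave out a replicate included. The number of pairs of a member and a strain called higher (51) was 21 without the selection of samples, 33 with raw TPM and 81 with the pool in the fit, and 29 to 39 without one replicate of every strain (50 without JU2131 replicate 1 alone, so 29 to 50 in all). The number called lower (27) was 8, 23 and 48 in the same alternatives, and 16 to 29 without one replicate. With the other pseudocounts, CPM and factors without mitochondrial transcripts, both counts stayed within 1.5 times.

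H2 of the complex I mean (0.212) was 0.13 without the selection of samples and 0.033 in the samples of the later year, and 0.146 to 0.339 without one replicate. H2 of the complex I mean against the other mitochondrial genes (0.294) was 0.245 in the samples of the later year and 0.237 to 0.497 without one replicate. The balance of all 7 members differed among strains in every alternative but the samples of the later year, where 5 did. The balance of ND4L had an H2 of 0.553 to 0.681 and that of ND2 0.577 to 0.752 over the alternatives, and that of ND3 fell to 0.093 in the samples of the earlier year. The r of the complex I mean with the nuclear genes of complexes III to V (0.22) turned to -0.145 with CPM, -0.072 with developmental scores regressed out and -0.035 in the samples of the later year, and the cause was not tested. The other lists kept the sign of their r but mostly not its size. Nearest to 0, it was 0.07 for ribosome proteins, 0.10 for maintenance genes, 0.14 for nuclear complex I genes and 0.20 for assembly factors (all with CPM), 0.10 for stress genes with developmental scores regressed out, -0.33 for the germline list with raw TPM, and 0.03 for muscle, -0.05 for embryonic, 0.10 for sperm and -0.24 for yolk genes in the samples of the later year. The r was 0.895 at its lowest for the other mitochondrial protein genes and 0.729 for the ribosomal RNA rows.

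No paired analysis was possible because the labels give no replicate numbers that strains share, and those used here follow the order of accession. The comparison of years within strains and the fits with the pool rest on the pool in the labels. With 2 or 3 cultures a strain, the smallest difference of a single strain that was called for any member was 0.97 on the log2 scale.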

Other observations

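The 49 samples that the selection removed were often extreme in the complex I genes. On the scale of all samples together their complex I mean ran from 4.43 to 10.56 with a median of 6.95, against 3.93 to 9.98 with a median of 6.47 in the kept samples. In 26 of them it lay above all kept cultures of the strain, in 19 below all of them and in 4 between them. The difference from the mean of the kept cultures was 0.35 ± 1.5 on the log2 scale (mean ± SD). The selection used distances over all genes, and the part of the mitochondrial genes in it was not tested.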
